A study of Homo sapiens with 83 samples.

Results

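The genes described here are the enzymes that cut, fold and crosslink the extracellular matrix, with the inhibitors of the matrix metalloproteinases. They are the genes whose symbol is MMP, TIMP, PLOD, P4HA or ADAMTS followed by a number, LOX or LOXL with a number, TGM2, SERPINH1 or BMP1, and 59 of the 60237 genes in the expression table matched. Of these 59 members, 36 had a mean level of at least 1 TPM (transcripts per 1000000) over the SHEP libraries and 25 over the SKNAS libraries, 21 passed in both lines, 40 passed in at least 1 line, and 19 stayed under 1 TPM in both. The effect of N-MYC was tested only in a line where the member passed.

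RNA was sequenced from SHEP and SKNAS, 2 human neuroblastoma cell lines that both overexpress N-MYC-ER, a fusion protein of N-MYC and an estrogen receptor domain that becomes active when 4-hydroxytamoxifen (4OHT) is added. Cells received ethanol vehicle (MYC-OFF) or 4OHT (MYC-ON), and dexamethasone was added to every culture to entrain its clock, from which circadian time (CT) is counted. SHEP was sampled in 2 replicate series every 4 h from CT24 to CT76, giving 28 MYC-OFF and 28 MYC-ON libraries, and SKNAS in 1 series, giving 14 MYC-OFF libraries (CT24 to CT76) and 13 MYC-ON libraries (CT24 to CT72). In counts of SHEP time points, each of the 14 CTs in each series counts as 1. MYC-ON and MYC-OFF libraries were paired there by CT and series number. No library of cells lacking N-MYC-ER was analysed here, so activation of N-MYC and other effects of 4OHT cannot be told apart, and the time points of a series stand in for replicates.

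Fibrillar collagen is modified in the endoplasmic reticulum, where prolyl and lysyl hydroxylases act on the chains and the chaperone HSP47 (SERPINH1) binds the triple helix. After secretion, ADAMTS N-proteinases and BMP1 remove the propeptides, and lysyl oxidases and transglutaminase crosslink the fibres. Matrix metalloproteinases (MMPs) degrade matrix and cell surface proteins, and the tissue inhibitors of metalloproteinases (TIMPs) block them.

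Both lines carried the markers of mesenchymal neuroblastoma cells (10 of 10 at a mean of 1 TPM or more in SHEP and 9 of 10 in SKNAS), adrenergic markers were at that level for 3 of 10 in SHEP and 7 of 10 in SKNAS, and 0 of 5 endothelial markers reached it in either line. The summed adrenergic markers were at most 65.5 TPM in the SHEP MYC-OFF libraries and averaged 86.1 TPM in MYC-ON, where every library was higher. The 5 leukocyte markers, of which 1 (CD68) in SHEP and 2 in SKNAS reached 1 TPM, summed to 33.2 to 65.4 TPM in SHEP MYC-OFF against 13.7 to 53.9 TPM in MYC-ON and to 86.5 to 312 TPM in SKNAS MYC-OFF against 26.8 to 136 TPM in MYC-ON. Of the 5 epithelial markers, 2 reached 1 TPM in SHEP and 3 in SKNAS, and most of their summed TPM was KRT8 and KRT18. They summed to 1135 to 2829 TPM in SHEP MYC-OFF against 1269 to 2113 TPM in MYC-ON. In SKNAS they summed to 564 to 1084 TPM in MYC-OFF against 316 to 463 TPM in MYC-ON. EPCAM went the other way in SKNAS, with means of 0.12 TPM in MYC-OFF and 1.16 TPM in MYC-ON. The part of these markers in the changes below was not tested. MYCN transcript, which does not check the labels because 4OHT acts on the fusion protein, had medians of 559.9 and 353 TPM in SHEP MYC-OFF and MYC-ON, and ranged from 13.1 to 1046 TPM over the SKNAS libraries. Library medians of log2(TPM + 1) lay between 3.93 and 4.17 in SHEP, but fell below 3.3 in 3 of 14 SKNAS MYC-OFF and 4 of 13 SKNAS MYC-ON libraries, and reached 3.8 in only 10 and 3 of them. SKNAS results are therefore given also without these libraries. In bulk RNA, fewer cells of a type and less RNA per cell cannot be told apart.

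In MYC-ON, most tested members were lower in SHEP, and in SKNAS with all libraries in the fit. In SHEP, 29 of 36 members fell (38.9% of the 14362 genes tested did), 23 of them by at least 1.5-fold (11.4% of all genes tested), and 4 rose (33% of all genes), 2 of them, MMP17 and ADAMTS1, by at least 1.5-fold (9.39%). The median member changed by -0.97 on the log2(TPM + 1) scale, while the median over all genes was -0.036. In SKNAS, 18 of 25 members fell (34.2% of the 13886 genes tested did), 16 of them by at least 1.5-fold (23.8%), and 2 rose, MMP17 and MMP9 (13.9%, and 6.99% for at least 1.5-fold); the median member changed by -1.21 and the median gene by -0.29. Rescaling the libraries by median of ratios, which moved the median SKNAS gene to 0.012, gave 6 higher and 17 lower with a member median of -0.96, and the library median as covariate gave 5 and 17. Without the 14 SKNAS libraries of median below 3.8, 9 of 25 members were lower and 2 higher. The median member then changed by -0.68 and the median gene by -0.049. For the alternative fits here and below, the share of all genes called was not counted. Throughout, a call of higher or lower needs a log2 difference of 0.15 or more together with an adjusted p no greater than 0.05 in limma, and 1.5-fold stands for a log2 difference of at least 0.66. Adding 1 before the log makes the change of members at a few TPM look smaller than it is: with 0.1 added, the SHEP changes of MMP28 and ADAMTS17, near 1 TPM, went from -1.14 to -1.76 and from 0.43 to 0.83. The filter also bears on these counts, since MMP9 in SKNAS and ADAMTS17 in SHEP, among the members that rose, passed 1 TPM only through MYC-ON, and MMP28 and ADAMTS15 in SHEP, among those that fell, only through MYC-OFF.

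Of the 21 members tested in both lines, with all libraries in the fit, 14 were lower in both (24.1% of the 12306 genes tested in both lines) and MMP17 was higher in both (11.6%). Among these 14, ADAMTS3, BMP1, LOXL2, MMP2, PLOD1 and TIMP1 missed the SKNAS call without the SKNAS libraries of median below 3.8. MMP9 fell in SHEP and rose in SKNAS, MMP11, P4HA1 and SERPINH1 fell in SHEP and missed the call in SKNAS, MMP16 fell in SKNAS and missed it in SHEP, and PLOD3 was called in neither line. In SHEP, the MYC-ON and MYC-OFF libraries did not overlap for 19 of the 36 members, 17 of which were lower (6.36% of all genes tested) and 2 higher (6.11%) in MYC-ON. In SKNAS this held for 3 of 25 members, MMP28 (lower; 2.09% of all genes tested) and MMP17 and MMP9 (higher; 2.32%).

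**Figure D1:**
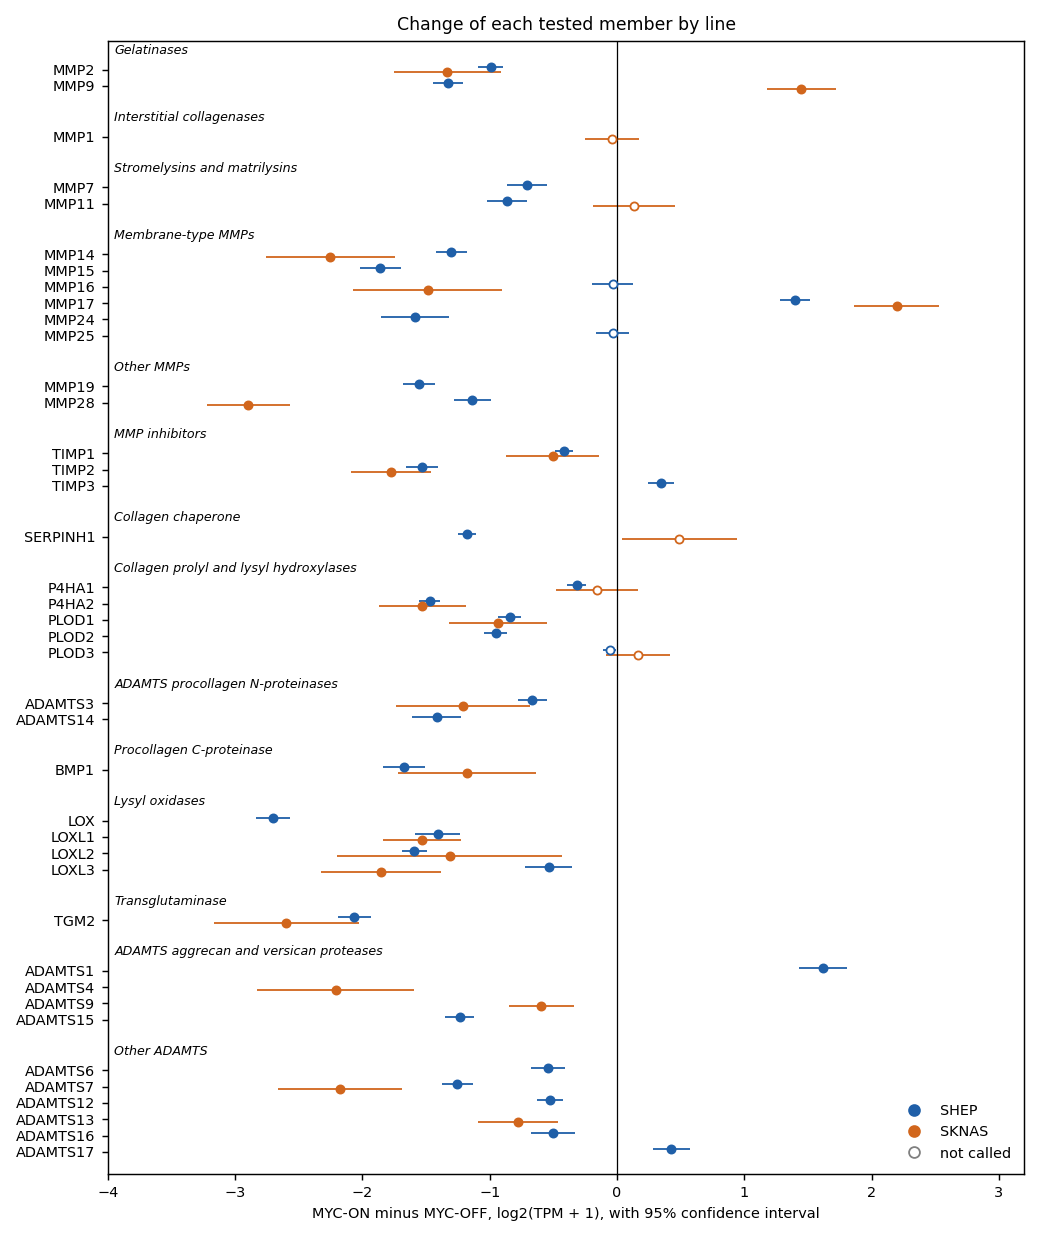
Change of each of the 40 tested members between MYC-ON and MYC-OFF (x axis, log2(TPM + 1) difference; rows, members grouped by role), in SHEP (blue) and SKNAS (orange), with 95% confidence intervals from the limma fit; open circles missed the call. Most points lie left of 0; MMP17 lies right of 0 in both lines, and MMP9 lies left of 0 in SHEP (-1.33) and right of it in SKNAS (1.45).

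Promoter sequence was examined for the members called at 1.5-fold or more in both lines. RefSeq windows on GRCh38.p14, running from 250 bases before to 50 bases after the first start listed for a gene, were at hand for 6 of these 14 members: ADAMTS3, ADAMTS7, LOXL1, MMP14, P4HA2 and PLOD1. Each window was searched on both strands for CACGTG, the E-box that MYC proteins bind. A search for ACGTG, the core of the hypoxia response element, also finds every E-box of that form. The other motifs were the AP-1 site TGANTCA and the TATA box letters TATAAA. Of the 6 windows, 2 held ACGTG and the others held no match. All 6 genes fell in both lines, and these 2 windows are shown because they held a match, which is in capitals. Position 1 is the first base of the transcript and position -1 the base before it. In MMP14 (chr14:22836335-22836634, plus strand) the match starts at position -96 and reads in reverse as CACGT, and in ADAMTS3 (chr4:72569172-72569471, minus strand) it starts at position -214.

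MMP14: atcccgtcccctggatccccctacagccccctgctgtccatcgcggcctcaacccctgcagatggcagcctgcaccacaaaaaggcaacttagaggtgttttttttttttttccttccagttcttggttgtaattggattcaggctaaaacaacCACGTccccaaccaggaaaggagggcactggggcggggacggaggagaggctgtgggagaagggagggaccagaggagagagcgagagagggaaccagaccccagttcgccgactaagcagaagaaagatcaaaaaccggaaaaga

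ADAMTS3: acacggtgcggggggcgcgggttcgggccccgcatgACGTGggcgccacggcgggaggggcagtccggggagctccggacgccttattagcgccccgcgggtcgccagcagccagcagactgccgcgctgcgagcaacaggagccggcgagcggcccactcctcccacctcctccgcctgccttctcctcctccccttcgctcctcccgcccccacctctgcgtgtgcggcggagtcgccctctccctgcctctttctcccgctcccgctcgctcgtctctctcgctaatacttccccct

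Windows were matched for 23 of the 40 tested members. ACGTG occurred in 9 of these 23 (39.1%) and in 21.6% of the 27305 RefSeq promoter windows, and CACGTG occurred in 2 of 23, ADAMTS6 and ADAMTS17 (8.70% against 7.43% of all windows). The AP-1 motif was found in ADAMTS12 and MMP7 (8.70% against 7.76%), and TATAAA in MMP7 and P4HA1 (8.70% against 11.95%). LOX held 4 matches to ACGTG, the most of any tested member. These counts describe letters in these windows; no binding was measured.

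Among the gelatinases, which cut denatured collagen and basement membrane collagen, MMP2 (chr16:55389700-55506691 in GRCh38, plus strand) was the most abundant member in SHEP, with 23.4% ± 1.14 (SD, n = 28) of the summed TPM of all members in MYC-OFF. It ranged from 857 to 1314 TPM (median 1151) in the SHEP MYC-OFF libraries and from 431 to 749 TPM (median 561) in MYC-ON. Every MYC-ON library lay below every MYC-OFF library, a log2 change of -0.99 (SE 0.048), adjusted p = 1.5e-23. In SKNAS, MMP2 ranged from 67.9 to 287 TPM (median 233) in MYC-OFF and from 35.4 to 186 TPM (median 64) in MYC-ON. The SKNAS groups overlapped, 12 of 13 time points were lower in MYC-ON, and the change of -1.33 (SE 0.20) became -0.81 (adjusted p = 0.12) without the 14 libraries whose median was below 3.8.

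MMP9 (chr20:46008908-46016561, plus strand), the other gelatinase, moved in opposite directions. In SHEP it ranged from 3.46 to 6.48 TPM (median 4.68) in MYC-OFF and from 0.714 to 2.53 TPM (median 1.23) in MYC-ON. In SKNAS it ranged from 0 to 0.465 TPM (median 0.139) in MYC-OFF and from 1.35 to 3.96 TPM (median 2.1) in MYC-ON. Neither pair of groups overlapped: all 28 SHEP time points were lower in MYC-ON and all 13 SKNAS time points were higher. The log2 changes were -1.33 (SE 0.059) and 1.45 (SE 0.13), and the difference between the lines was 2.77 (SE 0.11), adjusted p = 4.5e-29. In SKNAS, MMP9 passed the filter of 1 TPM only through MYC-ON and reached at most 3.96 TPM, and its change of 1.45 was 3.19 with a pseudocount of 0.1 TPM.

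MMP1, the interstitial collagenase, was tested only in SKNAS, where it ranged from 0.134 to 2.56 TPM (median 1.04) in MYC-OFF and from 0.423 to 2.27 TPM (median 1.16) in MYC-ON. The groups overlapped, and the change of -0.037 had an interval of -0.25 to 0.18; after rescaling it was 0.17. Matrilysin (MMP7), a small MMP that lacks the hemopexin domain, was tested only in SHEP, where MYC-OFF libraries ranged from 3.92 to 35.1 TPM (median 15.5) and MYC-ON libraries from 4.76 to 12.3 TPM (median 8.83). It was lower in MYC-ON at 26 of 28 time points (-0.71, SE 0.077) and was listed at 0 in every SKNAS library. Stromelysin-3 (MMP11), which furin activates inside the cell, ranged from 6.8 to 16.4 TPM (median 12.6) in SHEP MYC-OFF and from 3.77 to 9.65 TPM (median 6.64) in MYC-ON, a change of -0.87 (SE 0.078) with lower values at all 28 time points. In SKNAS, at medians of 1.42 and 1.73 TPM, its change was 0.13 (interval -0.19 to 0.46), and the difference between the lines was 1.00 (SE 0.15), adjusted p = 1.2e-07.

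Of the membrane-type MMPs, which work at the cell surface, MMP14, MMP15 and MMP24 fell in SHEP, MMP17 rose, and MMP16 and MMP25 were not called. MMP14, the membrane-type collagenase that activates the MMP2 precursor, ranged from 150.4 to 248.9 TPM (median 206) in SHEP MYC-OFF and from 55.1 to 149 TPM (median 82.2) in MYC-ON, with no overlap (-1.30, SE 0.061). In SKNAS it ranged from 8.92 to 92.4 TPM (median 61.6) in MYC-OFF and from 3.21 to 24.4 TPM (median 8.07) in MYC-ON. The SKNAS groups overlapped, but MYC-ON was lower at 13 of 13 time points (-2.25, SE 0.24), and the SKNAS minus SHEP difference of the changes was -0.95 (SE 0.17), adjusted p = 7.8e-06. With the library median as covariate this difference between lines was -0.35.

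MMP17 (chr12:131828393-131851783, plus strand), a membrane-type MMP held by a glycosylphosphatidylinositol anchor, was the only member called higher in both lines. SHEP MYC-OFF libraries ranged from 11.8 to 18.5 TPM (median 14.8) and MYC-ON libraries from 25.4 to 50.8 TPM (median 41.3). SKNAS MYC-OFF libraries ranged from 4.26 to 26.4 TPM (median 21.3) and MYC-ON libraries from 65.1 to 118 TPM (median 93.2). The groups did not overlap in either line, and MYC-ON was higher at 28 of 28 and 13 of 13 time points. The rise was 1.40 (SE 0.057), adjusted p = 3e-26, in SHEP and 2.20 (SE 0.16), adjusted p = 4.6e-08, in SKNAS, and it was larger in SKNAS by 0.80 (SE 0.13), adjusted p = 7.1e-07. Leaving out the SKNAS libraries with a median below 3.8 gave a rise of 2.20.

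MMP15 and MMP24, both transmembrane members of the same family, were tested only in SHEP. MMP15 fell from the range 3.57 to 11.3 TPM (median 7.62) to the range 0.293 to 2.55 TPM (median 1.11) without overlap (-1.86, SE 0.080). MMP24 ranged from 13.8 to 34.5 TPM (median 22.2) in MYC-OFF and from 2.64 to 15 TPM (median 7.04) in MYC-ON, lower at all 28 time points with ranges that overlapped (-1.58, SE 0.13). MMP16 and MMP25 were not called in SHEP: MMP16, a further transmembrane type at a MYC-OFF median of 1.19 TPM, changed by -0.033 (interval -0.19 to 0.13). MMP25, lipid anchored like MMP17 and at a MYC-OFF median of 2.48 TPM, changed by -0.033 (interval -0.16 to 0.10). In SKNAS, MMP16 ranged from 2.42 to 17.9 TPM (median 9.03) in MYC-OFF and from 0.637 to 8.23 TPM (median 2.09) in MYC-ON, a change of -1.49 (SE 0.27) with lower values at 11 of 13 time points. The change was -0.84 with the library median as covariate and -0.77 (adjusted p = 0.41) without the libraries below 3.8.

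Of the other MMPs, MMP28 (epilysin; chr17:35756249-35795707, minus strand) had the largest fall among the SKNAS members. It ranged from 17.6 to 55.3 TPM (median 37.6) in SKNAS MYC-OFF and from 1.77 to 5.37 TPM (median 4.29) in MYC-ON, and from 2.06 to 4.94 TPM (median 3.27) and 0.225 to 1.82 TPM (median 1.09) in the SHEP groups. Neither pair of groups overlapped. The changes were -2.90 (SE 0.15) in SKNAS and -1.14 (SE 0.072) in SHEP, where the gene passed 1 TPM only in MYC-OFF, and they differed by -1.76 (SE 0.14), adjusted p = 2.3e-16. MMP19, tested only in SHEP, ranged from 8.05 to 13.4 TPM (median 11.2) in MYC-OFF and from 1.64 to 4.61 TPM (median 3.11) in MYC-ON, again without overlap (-1.55, SE 0.062).

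**Figure D2:**
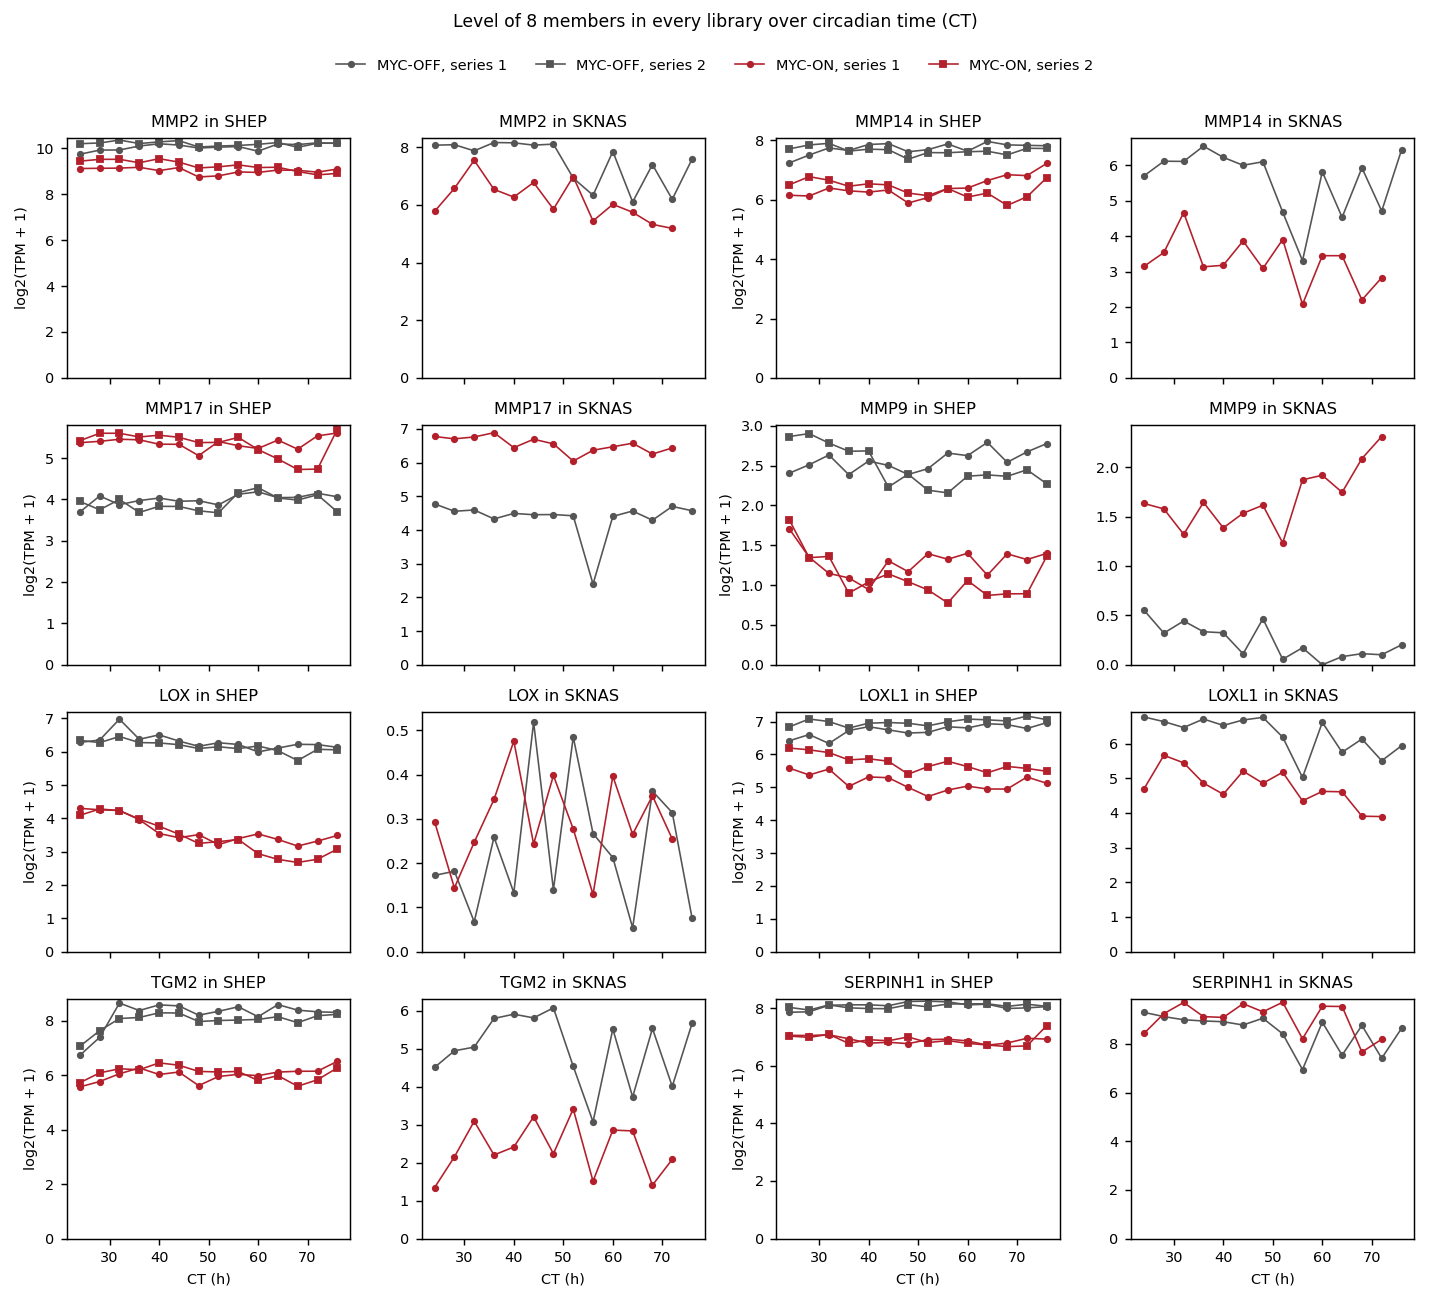
Level of 8 members, log2(TPM + 1), in every library against circadian time (CT, h); grey, MYC-OFF; red, MYC-ON; circles and squares, the 2 SHEP series; SKNAS has 1 series. The y axes start at 0 and differ between panels. The red and grey lines stay apart for MMP17 and MMP9 in both lines, LOX in SKNAS lies under 1 on this scale, and MMP2, MMP14, LOXL1, TGM2 and SERPINH1 in SKNAS dip in both conditions at CT56, where both libraries had a median below 3.3.

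Among the inhibitors, TIMP1 and TIMP2 fell in both lines and TIMP3 rose in SHEP. TIMP2 (chr17:78852977-78925387, minus strand), which also bridges MMP14 and the MMP2 precursor at the cell surface, ranged from 600.5 to 864 TPM (median 719.6) in SHEP MYC-OFF and from 172 to 398 TPM (median 240.1) in MYC-ON. In SKNAS the ranges were 67.3 to 161 TPM (median 141) and 15.7 to 76 TPM (median 39.5). MYC-ON was lower at every time point of both lines, without overlap in SHEP, and the changes of -1.53 (SE 0.064) and -1.77 (SE 0.15) were not called different (difference -0.24, interval -0.51 to 0.023).

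TIMP1 fell less: it was 266 ± 25.8 TPM in SHEP MYC-OFF and 199 ± 23.1 TPM in MYC-ON (mean ± SD, n = 28 each), a change of -0.42 (SE 0.035) seen at all 28 time points. In SKNAS, where it was the most abundant member of MYC-OFF, it moved with the libraries of low median: MYC-OFF values were 1118 to 1831 TPM in the 3 libraries below 3.3 and 568 to 1184 TPM in the other 11. MYC-ON values were 669.9 to 813 TPM in 4 and 368 to 641 TPM in 9 libraries. Its SKNAS change of -0.51 was lost without the 7 libraries (-0.44, adjusted p = 0.095) and after median-of-ratios rescaling (-0.16), and was -0.91 with the library median as covariate.

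TIMP3, the matrix-bound inhibitor that also blocks ADAMTS enzymes, rose in SHEP from 50.9 ± 5.6 to 65.6 ± 12 TPM (0.35, SE 0.051), with overlapping groups and higher values at 24 of 28 time points. The rise depended on the series: it was 0.17 without series 1 and 0.52 without series 2. TIMP3 was at most 0.139 TPM in any SKNAS library.

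SERPINH1 (chr11:75562056-75572783, plus strand), the collagen chaperone HSP47, changed differently in the lines. It ranged from 232 to 303 TPM (median 273) in SHEP MYC-OFF and from 101 to 168 TPM (median 118) in MYC-ON, and from 122 to 627 TPM (median 455) and 202 to 837 TPM (median 604) in the SKNAS groups. In SHEP the groups did not overlap and the change was -1.18 (SE 0.035); in SKNAS they overlapped, MYC-ON was higher at 11 of 13 time points, and the change of 0.49 (SE 0.21) missed the call (adjusted p = 0.068). The difference between the lines was 1.67 (SE 0.14), adjusted p = 4e-15. SKNAS values were 122 to 185 TPM in the 3 MYC-OFF libraries of median below 3.3 and 339.6 to 627 TPM in the other 11, and 202 to 345 TPM and 543 to 837 TPM in MYC-ON. Without those 7 libraries the SKNAS change was 0.54 (adjusted p = 0.013), and it was 0.99 with the library median as covariate.

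Of the collagen hydroxylases, P4HA1, P4HA2, PLOD1 and PLOD2 fell in SHEP, and P4HA2 and PLOD1 fell in SKNAS. P4HA2, a catalytic subunit of prolyl 4-hydroxylase, ranged from 84.6 to 130.2 TPM (median 116) in SHEP MYC-OFF and from 27.8 to 50.8 TPM (median 41.2) in MYC-ON. In SKNAS it ranged from 15.5 to 55.4 TPM (median 45.4) in MYC-OFF and from 7.35 to 21.7 TPM (median 12.4) in MYC-ON. It was lower at every time point of both lines, with changes of -1.47 (SE 0.041) and -1.53 (SE 0.16). The alternative subunit P4HA1, at MYC-OFF medians of 50.9 TPM in SHEP and 37.1 TPM in SKNAS, changed by -0.32 in SHEP (called) and by -0.16 in SKNAS (interval -0.48 to 0.16), where it was 0.18 after rescaling.

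Among the lysyl hydroxylases, PLOD1 ranged from 151 to 197 TPM (median 175) in SHEP MYC-OFF and from 62.6 to 121 TPM (median 95.6) in MYC-ON, without overlap (-0.84, SE 0.043). In SKNAS its ranges of 59.1 to 237 TPM (median 201) and 45.3 to 167 TPM (median 86.3) overlapped, and the change of -0.94 (SE 0.18) was -0.49 with the library median as covariate. PLOD2, whose product hydroxylates the collagen telopeptides, ranged from 73.8 to 118 TPM (median 89.2) in SHEP MYC-OFF and from 33.9 to 56.3 TPM (median 48) in MYC-ON, again without overlap (-0.95, SE 0.045), and was at most 0.796 TPM in SKNAS. PLOD3, which also transfers sugars to collagen and had MYC-OFF medians of 148 and 248 TPM, was called in neither line, with changes of -0.058 (interval -0.11 to -0.0065) and 0.17 (interval -0.084 to 0.42).

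All tested proteinases that trim procollagen fell with all libraries in the fit. Without the SKNAS libraries of median below 3.8, ADAMTS3 (-0.68) and BMP1 (-1.05) were no longer called in SKNAS. The N-proteinase ADAMTS3 ranged from 5.05 to 8.16 TPM (median 6.75) in SHEP MYC-OFF and from 2.28 to 6.49 TPM (median 3.82) in MYC-ON (-0.67, SE 0.057, lower at all 28 time points). In SKNAS it ranged from 1.94 to 13.1 TPM (median 9.69) in MYC-OFF and from 0.596 to 7.002 TPM (median 2.74) in MYC-ON, a change of -1.21 (SE 0.25) that was -0.61 with the library median as covariate. ADAMTS14, tested only in SHEP, ranged from 2.84 to 7.9 TPM (median 5.12) in MYC-OFF and from 0.612 to 2.95 TPM (median 1.14) in MYC-ON (-1.42, SE 0.095). BMP1, the C-proteinase, ranged from 113 to 220.1 TPM (median 185) in SHEP MYC-OFF and from 29.9 to 86.4 TPM (median 56) in MYC-ON without overlap (-1.67, SE 0.081). Its SKNAS ranges of 4.15 to 55.5 TPM (median 42.1) and 6.72 to 29.7 TPM (median 12.1) overlapped, with lower values at 10 of 13 time points (-1.18, SE 0.26, and -0.61 with the covariate).

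The lysyl oxidases, which oxidise lysine residues of collagen and elastin to start crosslinks, held the largest fall in SHEP. LOX (chr5:122063195-122078413, minus strand) ranged from 52.4 to 125 TPM (median 73.5) in SHEP MYC-OFF and from 5.4 to 18.7 TPM (median 9.97) in MYC-ON. The groups lay far apart, a change of -2.70 (SE 0.065), adjusted p = 2.8e-35. In SKNAS, LOX was at most 0.432 TPM and was not tested.

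LOXL1, which acts on elastin, ranged from 79.7 to 143 TPM (median 118) in SHEP MYC-OFF and from 25.4 to 72.2 TPM (median 43.2) in MYC-ON, and from 31.6 to 108 TPM (median 89.3) and 13.9 to 49.7 TPM (median 25) in the SKNAS groups. MYC-ON was lower at every time point of both lines, with changes of -1.41 (SE 0.087) and -1.53 (SE 0.14). LOXL2, which crosslinks basement membrane collagen, ranged from 576 to 796 TPM (median 703) in SHEP MYC-OFF and from 161 to 335 TPM (median 227) in MYC-ON (-1.59, SE 0.050) without overlap, and made up 14.8% ± 0.79 (SD, n = 28) of the members' TPM in SHEP MYC-OFF. In SKNAS the LOXL2 ranges of 5.89 to 129 TPM (median 78.9) and 2.63 to 90.1 TPM (median 20.8) overlapped and followed the library medians: MYC-OFF values were 5.89 to 6.74 TPM in the 3 libraries below 3.3 and 24.6 to 129 TPM in the other 11. The SKNAS change of LOXL2, -1.31 (SE 0.42), was -1.36 without the libraries below 3.3, -0.49 (adjusted p = 0.33) without those below 3.8 and -0.23 (adjusted p = 0.06) with the covariate. LOXL3 ranged from 1.72 to 20.1 TPM (median 15.2) in SKNAS MYC-OFF and from 0.578 to 4.73 TPM (median 2.48) in MYC-ON (-1.86, SE 0.22); its SHEP change, from a MYC-OFF median of 3.24 TPM, was -0.54 (SE 0.091), and the lines differed by -1.32 (SE 0.19), adjusted p = 6.3e-08.

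TGM2 (chr20:38127385-38166578, minus strand), the tissue transglutaminase that joins glutamine to lysine residues, fell strongly in both lines. SHEP libraries ranged from 105 to 398 TPM (median 290.1) in MYC-OFF and from 46.3 to 89.7 TPM (median 67.2) in MYC-ON, without overlap. SKNAS libraries ranged from 7.44 to 66.7 TPM (median 38.5) in MYC-OFF and from 1.54 to 9.67 TPM (median 3.71) in MYC-ON, with some overlap but lower values at 13 of 13 time points. The changes were -2.07 (SE 0.065) and -2.60 (SE 0.27), and the SKNAS value was -1.95 with the library median as covariate and -2.28 without the libraries below 3.8.

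Of the ADAMTS proteases of aggrecan and versican, ADAMTS1 and ADAMTS15 passed the filter in SHEP and ADAMTS4 and ADAMTS9 in SKNAS. ADAMTS1 (chr21:26835755-26845409, minus strand) rose in SHEP, from the range 0.998 to 3.61 TPM (median 1.56) in MYC-OFF to 5.34 to 16.3 TPM (median 6.79) in MYC-ON. These groups did not overlap (1.62, SE 0.093, adjusted p = 1.2e-20). In SKNAS, where it averaged under 1 TPM and was not tested, its medians were 0.939 and 0.626 TPM. ADAMTS4, tested only in SKNAS, ranged from 2.96 to 22.2 TPM (median 14.9) in MYC-OFF and from 0.611 to 4.44 TPM (median 1.19) in MYC-ON, lower at 13 of 13 time points (-2.21, SE 0.29). ADAMTS9, also tested only in SKNAS and at a MYC-OFF median of 2.18 TPM, changed by -0.59 (SE 0.12). ADAMTS15 ranged from 1.68 to 2.998 TPM (median 2.24) in SHEP MYC-OFF and from 0.0931 to 1.02 TPM (median 0.421) in MYC-ON (-1.23, SE 0.057); it passed 1 TPM only in MYC-OFF, and its change was -2.39 with a pseudocount of 0.1 TPM.

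Of the other ADAMTS genes, ADAMTS7, a protease of cartilage oligomeric matrix protein, fell in both lines. It ranged from 12 to 34.6 TPM (median 25.7) in SHEP MYC-OFF and from 7.43 to 14.8 TPM (median 9.9) in MYC-ON (-1.26, SE 0.061). In SKNAS it ranged from 6.56 to 74.7 TPM (median 59.7) in MYC-OFF and from 2.96 to 20.5 TPM (median 10.3) in MYC-ON (-2.18, SE 0.23), lower at every time point in both lines although the ranges overlapped. In SHEP, ADAMTS6 (-0.55), ADAMTS12 (-0.53) and ADAMTS16 (-0.50), at MYC-OFF medians of 19.8, 40.9 and 19.1 TPM, fell by less than 1.5-fold. ADAMTS17 rose by 0.43 from 0.76 ± 0.343 to 1.36 ± 0.446 TPM, passing 1 TPM only in MYC-ON. ADAMTS13, which cleaves von Willebrand factor, was tested only in SKNAS, where it ranged from 0.7004 to 4.62 TPM (median 4.06) in MYC-OFF and from 1.03 to 2.24 TPM (median 1.72) in MYC-ON (-0.78, SE 0.15).

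The 19 members under 1 TPM in both lines were MMP3, MMP8, MMP10, MMP12, MMP13, MMP20, MMP21, MMP26, MMP27, TIMP4, P4HA3, LOXL4, ADAMTS2, ADAMTS5, ADAMTS8, ADAMTS10, ADAMTS18, ADAMTS19 and ADAMTS20. They include the collagenases MMP8 and MMP13 and the stromelysins MMP3 and MMP10, and no change was tested for them. MMP26 was listed at 0 in every library.

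**Figure D3:**
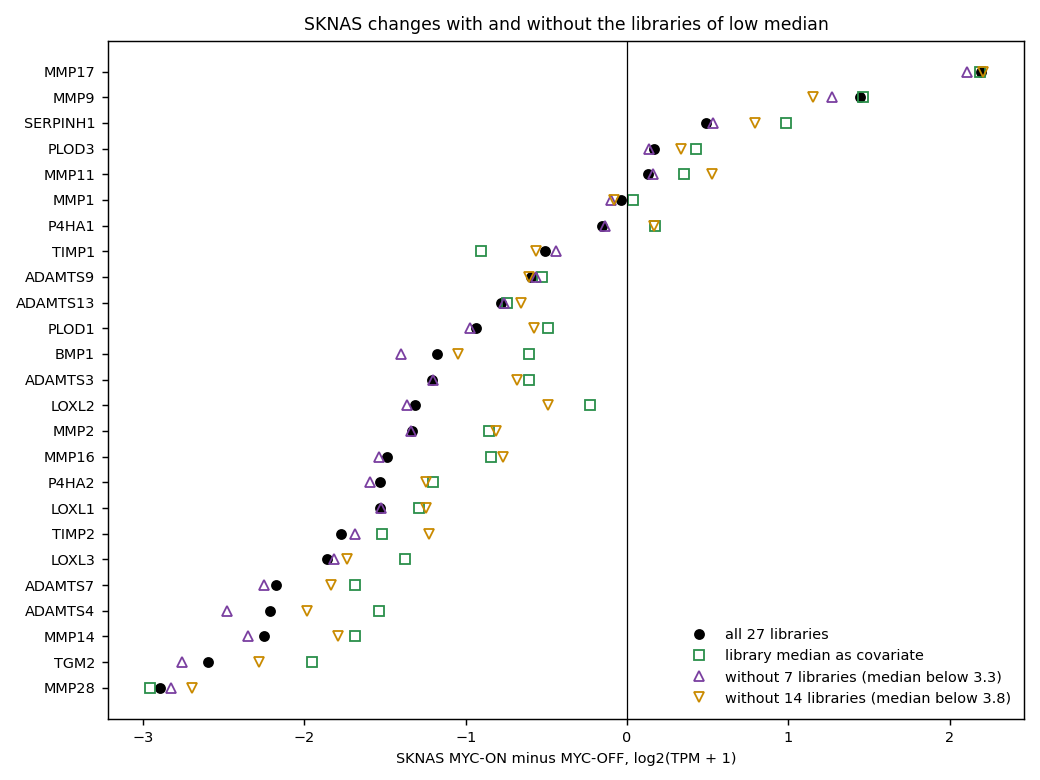
SKNAS change of the 25 tested members (x axis, log2(TPM + 1) difference, MYC-ON minus MYC-OFF; rows, members) with all 27 libraries, with the library median as covariate, and without the 7 libraries of median below 3.3 or the 14 below 3.8. MMP17, MMP9 and MMP28 kept values of 2.11 to 2.20, 1.15 to 1.46 and -2.96 to -2.70, while LOXL2 moved from -1.31 to -0.23.

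Without the 7 SKNAS libraries of median below 3.3, 3 members were called higher and 17 lower. Without the 14 libraries below 3.8, MMP17 and MMP9 were still called higher, but 9 members were called lower in place of 18: ADAMTS3, ADAMTS9, ADAMTS13, BMP1, LOXL2, MMP2, MMP16, PLOD1 and TIMP1 no longer passed. Only 3 MYC-ON libraries remain there, and several of these changes kept their size: ADAMTS9 was -0.61, TIMP1 -0.57, BMP1 -1.05 and ADAMTS13 -0.66, while LOXL2, MMP16, MMP2, PLOD1 and ADAMTS3 were -0.49, -0.77, -0.81, -0.57 and -0.68. With the library median as covariate, MMP11 (0.35), PLOD3 (0.42) and SERPINH1 (0.99) were called higher as well.

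The change was compared between the lines for the 21 members tested in both, in a fit of all 83 libraries. It was higher in SKNAS for 6 members (10.7% of the 12306 genes tested in both lines), 4 of them by at least 1.5-fold (2.97%), and lower for 8 (38.8%), 5 of them by at least 1.5-fold (14.9%). The 4 were MMP9, SERPINH1, MMP11 and MMP17, of which only MMP17 rose in both lines, and the 5 were MMP28, MMP16, LOXL3, MMP14 and ADAMTS7. The median difference over the 21 members was -0.092, while that over all these genes was -0.24. With the library median as covariate the counts were 9 and 6, and after rescaling 10 and 7; MMP14 and ADAMTS7 then differed by -0.71 and -0.69.

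Levels in MYC-OFF also separated the lines, each of which was sampled as its own time course, so line and experiment cannot be told apart. Of the 40 tested members, 26 were lower in SKNAS (45.6% of the 15942 genes), 22 of them by at least 1.5-fold (31.1%), and 12 were higher (33.5%), 9 by at least 1.5-fold (20%). The filter set the direction for many of them: the 15 members that passed it only in SHEP were all lower in SKNAS, and the 4 that passed only in SKNAS were all higher. Of the 21 members tested in both lines, 11 were lower (43.4% of the 12306 genes) and 8 higher (31.5%). PLOD2, LOX and TIMP3 are among the members that passed only in SHEP. Their MYC-OFF medians were 89.2, 73.5 and 49.5 TPM there and 0.0347, 0.146 and 0 TPM in SKNAS. The members higher in SKNAS were led by ADAMTS4 (3.26, SE 0.18) and MMP28 (3.14, SE 0.091), followed by MMP16 (2.02), ADAMTS13 (1.91), LOXL3 (1.59) and TIMP1 (1.55). Of these, ADAMTS4 and ADAMTS13 passed the filter only in SKNAS, so it set their direction. PLOD1 and ADAMTS3 were not called with all libraries, with differences whose intervals were -0.39 to 0.13 and -0.15 to 0.44. Without the SKNAS libraries of median below 3.3, limma called both higher in SKNAS, ADAMTS3 by 0.50 (adjusted p = 1.3e-06) and PLOD1 by 0.19 (adjusted p = 0.0085). After rescaling, ADAMTS3 was called (0.28, adjusted p = 0.0033) and PLOD1 was not (0.053). Summed over all members, SHEP held 4806 ± 296 TPM in MYC-OFF and 2233 ± 233 TPM in MYC-ON (SD, n = 28 each), and SKNAS held 2503 ± 263 (n = 14) and 1859.5 ± 318 TPM (n = 13).

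Samples taken between CT24 and CT76 allowed a trend over circadian time to be fitted in SHEP, in log2 units per 24 h. CT rises together with time since dexamethasone, time in culture and, in MYC-ON, time in 4OHT, so these cannot be told apart. In MYC-OFF, 7 of 36 members rose with time (2.92% of all genes) and 2 fell (5.1%), and in MYC-ON 7 rose (16.6%) and 14 fell (30.9%). The trends differed between the conditions for 19 members, with 16 lower (24.6%) and 3 higher (14.6%) in MYC-ON. In MYC-OFF the largest trend was that of MMP7 (0.86, SE 0.082), then ADAMTS7 (0.43, SE 0.042), TGM2 (0.30) and MMP24 (0.24). The TGM2 trend was 0.10 and no longer called without the CT24 libraries, which were the lowest of both series. Without CT24 the counts in MYC-OFF were 3 and 1, and they were 3 and 1 without series 1 and 4 and 0 without series 2.

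In MYC-ON the falling members included MMP24 (-0.81, SE 0.055), LOX (-0.61, SE 0.066), MMP15 (-0.50, SE 0.069), BMP1 (-0.40, SE 0.070) and TIMP2 (-0.38, SE 0.050). MMP24 had the largest difference of trend, -1.06 (SE 0.063), adjusted p = 1.1e-19: it rose with time in MYC-OFF and fell in MYC-ON. MMP15 (-0.57, SE 0.10), BMP1 (-0.57, SE 0.082) and MMP7 (-0.53, SE 0.11) followed. MMP19 (0.34), ADAMTS6 (0.32) and TIMP3 (0.20) were those with a higher trend in MYC-ON. The series were not alike: mitochondrial transcripts took 6.10% to 7.65% of TPM in MYC-ON series 1 and 7.02% to 17.1% in series 2, and 6.12% to 8.69% and 7.45% to 13.7% in MYC-OFF, and their part in the trends was not tested. Series 1 alone gave -0.17 for BMP1 in MYC-ON and series 2 alone -0.63, while MMP24 gave -0.67 and -0.96. ADAMTS7 and MMP11, called in MYC-ON with both series, had trends of -0.035 without series 1 and 0.021 without series 2, and the TIMP3 difference was 0.028 without series 1. Without series 2, the differences of LOX, LOXL2, MMP11, ADAMTS7, MMP17 and ADAMTS6 were no longer called, nor was that of ADAMTS3 without series 1. With 0.1 added in place of 1, the MMP15 and ADAMTS15 differences were -0.96 and -1.05.

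**Figure D4:**
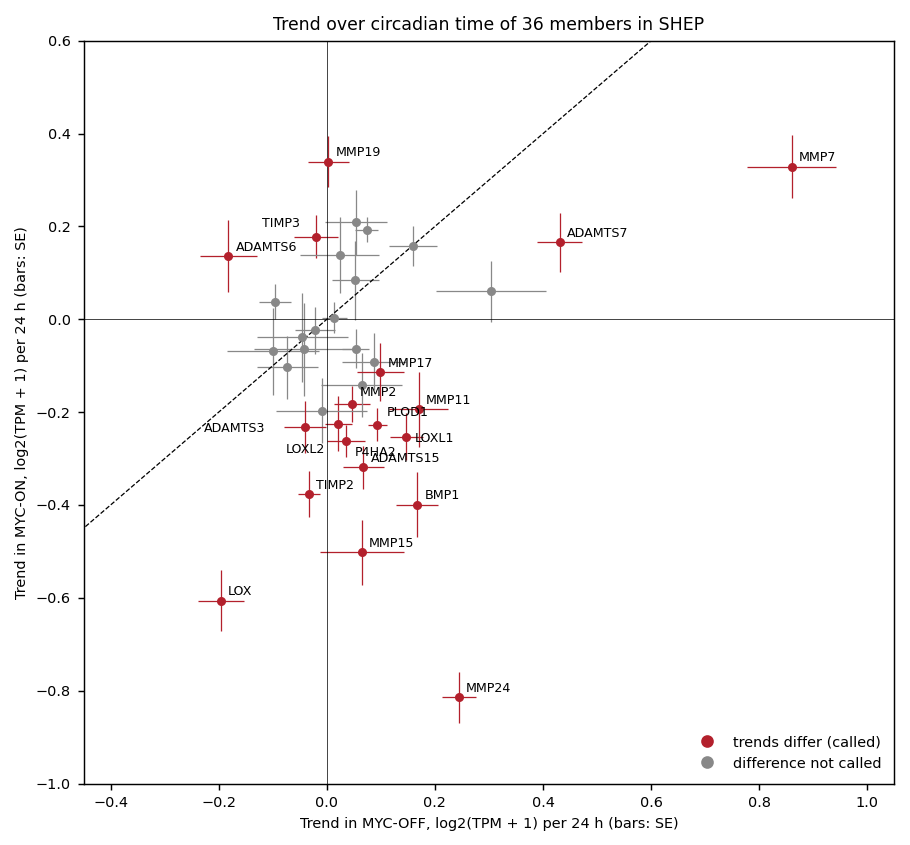
Trend over circadian time of the 36 members tested in SHEP, in log2(TPM + 1) per 24 h, in MYC-OFF (x axis) against MYC-ON (y axis), with standard errors; the dashed line marks equal trends. Named red points have trends that differ between conditions; most lie below the line, with MMP24 farthest from it (0.24 in MYC-OFF and -0.81 in MYC-ON).

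A rhythm with a period of 24 h was not called for any member. In MYC-OFF, limma called 0 of 36 members (0.0905% of all genes), with 4 at an unadjusted p of at most 0.05 (10.1% of all genes): TGM2, MMP19, MMP11 and MMP24. In MYC-ON it called 0 (0.0139%), with 3 at an unadjusted p of at most 0.05 (8.8%): MMP7, SERPINH1 and LOX. The test called only 13 of the 14362 genes in MYC-OFF and 2 in MYC-ON, so 0 called members cannot show that they lack a rhythm. The study reported far more oscillating genes with another tool, ECHO, over a range of periods. No other tool was run on the rhythms here.

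Genes around these enzymes, listed by function, are given as counts, to be read against the shares of all genes tested, of which 38.9% fell and 33% rose in SHEP and 34.2% fell and 13.9% rose in SKNAS. Of the collagen processing partners, such as prolyl 3-hydroxylases and procollagen enhancers, 8 of 15 tested fell and 2 rose in SHEP, and 6 of 15 fell and 1 rose in SKNAS, with median changes of -0.30 and -0.49. The regulators and other proteases of the cell surface gave 14 lower and 2 higher of 18 in SHEP and 12 lower and 1 higher of 17 in SKNAS (medians -0.73 and -1.14). The ADAMTS-like proteins, which lack a protease domain, gave 3 lower of 3 in each line (medians -1.10 and -0.87). Of the matrix proteins that are not collagens, 8 of 10 fell and 1 rose in SHEP, and 10 of 12 fell in SKNAS (medians -0.83 and -1.50). Among genes of these lists called in both lines, the largest falls were those of THBS1 (thrombospondin-1; -1.57 and -2.43) and FN1 (fibronectin; -2.24 and -1.76). The genes called higher in both lines were COLGALT2, a collagen galactosyltransferase (2.18 and 1.60), and CTSL, cathepsin L (0.43 and 0.31).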

How the data were processed

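Poly-A RNA of 83 libraries was measured by paired-end sequencing. According to their methods and the submitters' processing notes, the authors quantified transcripts with Salmon 1.3.0 against Gencode on GRCh38, summarised them to genes with tximport and deposited 1 table of TPM (transcripts per 1000000, the sum of every column). TPM keep no read depth, so depth per library is unknown here, no counting interval is given, and no count model was run; the time and condition design follows the study. Because TPM are shares, a change in a few abundant genes moves all others, which the rescaled alternative addresses. Salmon divides reads between overlapping genes: LOXL2, BMP1, MMP2 and TIMP2 overlap exons of other Gencode genes on the same strand. Many members, LOX, MMP9, TGM2, P4HA2 and LOXL1 among them, overlap exons of other genes on the opposite strand.

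From the TPM, log2(TPM + 1) was tested with limma 3.58.1 (R 4.3.3; empirical Bayes with a mean trend), with Benjamini-Hochberg adjustment over all genes with a mean of at least 1 TPM. MYC-ON was compared with MYC-OFF within a line with CT as a factor; the lines were compared by an interaction term over 83 libraries; trends and 24 h cosinor curves were fitted in SHEP with the series as a block. Groups came from the labels. Time points serve as replicates, so p-values measure the spread between these libraries, which may be technical. The fits were tested on simulated data drawn independently for each library. Such data cannot check the p-values where time points of a series, or SKNAS libraries of low median, move together. Every member at 1 TPM or more in a line is named with its level or change, with ranges for those called at 1.5-fold; of the pathway lists, the 2 largest changes per direction (by the mean of both lines) are named. The members and lists were chosen with earlier results of these data known. Coordinates are from Gencode on GRCh38, promoters from RefSeq. Alternatives were a pseudocount of 0.1 TPM, no filter, median-of-ratios rescaling, the library median as covariate, no mean trend, the series block or series means, and leaving out SKNAS libraries, a SHEP series or CT24.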

Additional observations from a re-analysis of the deposited data

Results flagged for a closer look

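The effect of MYC activation differed between the lines, by the interaction term of limma, for 14 of the 21 members tested in both. This restriction to members tested in both was set after values were seen, since a gene near 0 in a line cannot fall there. The effect was higher in SKNAS than in SHEP, in log2 units, for MMP9 (2.77), SERPINH1 (1.67), MMP11 (1.00), MMP17 (0.80), BMP1 (0.49) and PLOD3 (0.22). It was lower in SKNAS for MMP28 (-1.76), MMP16 (-1.46), LOXL3 (-1.32), MMP14 (-0.95), ADAMTS7 (-0.92), ADAMTS3 (-0.54), TGM2 (-0.53) and MMP2 (-0.34). Of the 12306 genes tested in both lines, 10.7% had a higher effect in SKNAS and 38.8% a lower one. SKNAS libraries varied more than SHEP libraries, and the fit shares a single estimate of spread; the part of that in these differences was not tested. Without the SKNAS libraries of median below 3.3, BMP1 (0.27, adjusted p = 0.25) and MMP2 (-0.34, adjusted p = 0.054) were no longer called, and with a pseudocount of 0.1 TPM BMP1 was 0.46 (adjusted p = 0.061). With the library median as covariate, ADAMTS3 (-0.15, adjusted p = 0.16), MMP2 and TGM2 were not called. Leaving out either SHEP series ended the calls of ADAMTS3, BMP1, MMP2, PLOD3 and TGM2, rescaling that of MMP2, and testing without the filter on low TPM those of BMP1 and MMP2.

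The trend over circadian time in SHEP differed between MYC-ON and MYC-OFF, by the interaction term, for 19 members. It was lower in MYC-ON, in log2 units per 24 h, for MMP24 (-1.06), MMP15 (-0.57), BMP1 (-0.57), MMP7 (-0.53), LOX (-0.41), LOXL1 (-0.40), ADAMTS15 (-0.39), MMP11 (-0.36), TIMP2 (-0.34), PLOD1 (-0.32), P4HA2 (-0.30), ADAMTS7 (-0.27), LOXL2 (-0.25), MMP2 (-0.23), MMP17 (-0.21) and ADAMTS3 (-0.19). It was higher in MYC-ON for MMP19 (0.34), ADAMTS6 (0.32) and TIMP3 (0.20). Of the 14362 genes tested in SHEP, 24.6% had a lower trend in MYC-ON and 14.6% a higher one. Every group holds more than 10 libraries, so single libraries were not screened as outliers.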

How the results depend on the processing

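The SHEP counts of 4 higher and 29 lower kept within 1.5 times under every alternative run, the series block and series means included; leaving out a series gave -0.10 to 0.036 for MMP16 and -0.073 to 0.0070 for MMP25. The SKNAS counts moved more. Rescaling gave 6 higher, moved the median of all genes from -0.29 to 0.01, and gave P4HA1 0.18 and MMP1 0.17; the library median as covariate gave 5 higher, P4HA1 0.17 and MMP1 0.039; and leaving out libraries below 3.8, which leaves 10 MYC-OFF and 3 MYC-ON libraries, gave 9 lower and P4HA1 0.17. SKNAS has 1 series, so leaving out a replicate was run only through these libraries.

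For the difference between lines, rescaling gave 10 higher and values of 0.026 (TIMP2), 0.20 (P4HA2), 0.18 (PLOD1), 0.19 (TIMP1) and 0.14 (LOXL1), and the covariate gave 0.20 (P4HA2), 0.26 (PLOD1), 0.015 (MMP2) and 0.11 (TGM2). Leaving out a SHEP series gave 4 higher and 5 lower each time, with -0.13 to 0.018 for P4HA2 and -0.29 to 0.045 for LOXL1. The level of PLOD1 in SKNAS against SHEP was 0.053 after rescaling and 0.19 without libraries below 3.3.

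The MYC-OFF trends gave 3 higher without the replicate block, 3 to 4 higher and 0 to 1 lower leaving out a series, and 3 higher and 1 lower without CT24. The MYC-ON trends gave 3 to 9 higher leaving out a series, with -0.035 to 0.37 for ADAMTS7 and -0.41 to 0.021 for MMP11. The difference of trends gave 5 higher after rescaling and 5 without CT24. Members at an unadjusted p of at most 0.05 for a rhythm numbered 2 in MYC-OFF without the replicate block and 1 in MYC-ON leaving out either series. The cause of these shifts was not tested. A replicate block in the MYC-ON versus MYC-OFF comparison in SHEP gave 4 higher and 29 lower and changed no call. The difference between series 1 and 2 correlated between the conditions by 0.0375 to 0.301 at single CTs, over 0.1 at 11 of 14 CTs. For the series means the correlation was 0.489. No values for unlike CTs are set beside these, so they cannot show pairing by number at single CTs. Depth is unknown, so members near 1 TPM carry unstated counting error.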
